A study of Rattus norvegicus with 3 samples.

Results

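The actin, tubulin, myosin and keratin cytoskeleton of the rat kidney inner medulla is described here for rats given lithium (Li) for 1 month, set against control rats. The genes were taken by symbol: the actins, alpha-actinins, alpha- and beta-tubulins, keratins other than Krt19, myosin light, heavy and unconventional chains, tropomyosins, troponins, spectrins, adducins, vimentin (Vim) and desmin (Des). This gave 61 of the 4390 genes named on the array, measured by 84 probes. The prefixes also took in Mylk2, a kinase of myosin light chains, and Tpmt, a drug-metabolising enzyme that is no cytoskeletal protein. Tissue RNA was compared on 3 dual-colour spotted arrays, each with lithium RNA in the red channel and control RNA in the green channel. The RNA of arrays 1 and 2 came from 2 rats per channel, and that of array 3 from 1 rat per channel. Neither the lithium dose nor the rats' strain, sex and age are given in the sources used here.

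Actin filaments, microtubules and intermediate filaments give tubule cells their shape and carry their vesicles. In the collecting duct, a meshwork of actin under the apical membrane holds back vesicles with the water channel Aqp2, and vasopressin loosens this meshwork while motor proteins bring the vesicles to the membrane. Keratins are the intermediate filaments of epithelia, vimentin is that of mesenchymal cells, and desmin, the troponins and the sarcomeric myosins belong to muscle. Lithium makes the collecting duct respond poorly to vasopressin, a condition called nephrogenic diabetes insipidus.

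Each value is a deposited log ratio minus the median of its array, with the probes of a gene averaged. The base of the logarithm was not stated, so folds are given for base 10 and base 2. A ratio above 0 is read as higher with lithium, which is likely because lithium RNA was channel 1, but the deposited table does not settle it. All arrays had the dyes the same way round, so dye and treatment cannot be told apart. Spot intensities were not used here, so the levels of these genes are unknown, and the inner medullary origin could not be checked by the level of any marker. Of 7 marker genes of collecting duct principal cells, 7 had a mean ratio above 0, where 55.7% of all features did. Without centring 6 did, against 45.2% of all features. Only Hsd11b2 had a limma adjusted p below 0.05, with 0.52, 0.57 and 0.37 on arrays 1, 2 and 3 (adjusted p = 0.0234). Aqp2 had 0.11, 0.26 and 0.14 (adjusted p = 0.153). Lithium is known to lower Aqp2, and although Aqp2 did not pass, this leaves doubt about the direction of all ratios. The ratios of arrays 2 and 3 correlated weakly across the 52 cytoskeletal genes measured on all arrays (Pearson r = 0.13), against 0.65 for arrays 1 and 2 and 0.37 for arrays 1 and 3. Across all 3819 features these correlations were 0.16, 0.46 and 0.48. Genes are not independent replicates.

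Lithium-treated medulla showed no cytoskeletal gene past the threshold, and the group's median ratio was close to that of all features. Of the 61 genes, 52 had a value on all 3 arrays and were tested, and 9 had no value on array 3. At a limma adjusted p of 0.05, 0 of the 52 passed, while 0.445% of all 3819 features did (0.236% above 0 and 0.209% below). These counts depended on the processing. They were 0 of the 52 and 0 of all features with any 1 array left out, 3 and 98 with the arrays scaled to one spread, and 11 and 1055 with array weights. Without adjustment, a p of 0.05 was passed by 10 of the 52 (19.2%, against 17.2% of all features). Of these 10, 5 were higher (Actb, Actn4, Myh2, Myo16 and Vim) and 5 were lower (Add2, Krt1, Krt16, Myh7 and Tnnt2). Both shares were 9.62%, where 9.71% of all features were higher and 7.52% lower.

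The middle of the group lay at the middle of the array. The median of the 52 mean ratios was 0.00417, and that of all features was 0.0133. Mean ratios above 0 were found for 28 genes (53.8%) and below 0 for 23, while 55.7% of all features lay above 0. With no centring 21 of the 52 lay above 0 (40.4%, against 45.2% of all features), so the count of higher genes depends on the centring. A mean within 0.05 of 0 was found for 28 genes (53.8%, against 50.3% of all features). A mean at least 0.15 away from 0 was found for 7 genes (13.5%, against 7.23%). The plot of ratios by family shows most genes with their arrays scattered around 0.

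**Figure D1:**
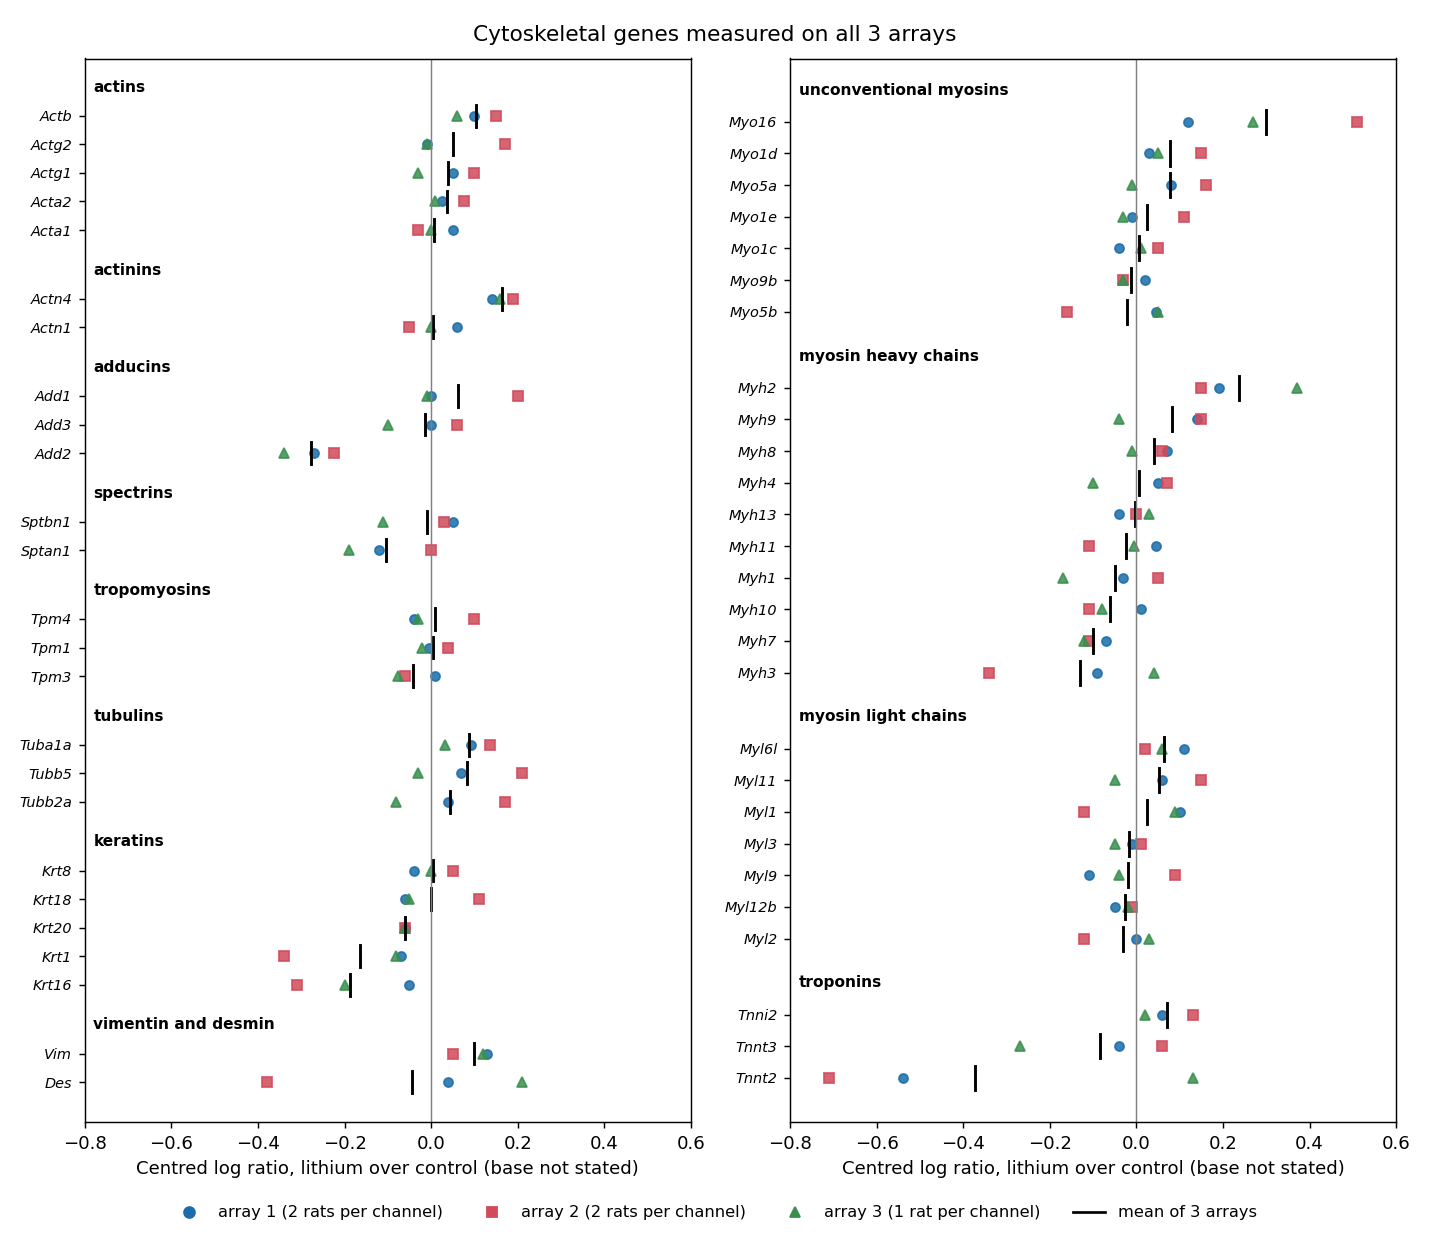
Centred log ratio (horizontal axis, lithium over control, base not stated) of the 52 cytoskeletal genes measured on all 3 arrays, grouped by family. Points are the 3 arrays and the black bar is their mean. Only 16 genes have all points on one side of 0, and Add2, Actn4, Myh2 and Myo16 stay at least 0.10 from it.

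Most cytoskeletal genes had ratios on both sides of 0, and 16 of 52 kept 1 sign on all 3 (30.8%, against 38.7% of all features). Of the 52 genes, 10 were above 0 on every array (19.2%, against 24.1% of all features) and 6 were below 0 on every array (11.5%, against 14.6%). A ratio of at least 0.10 on every array was found for Actn4, Myh2 and Myo16 above 0 (5.77%, against 3.48%) and for Add2 below 0 (1.92%, against 2.91%). These 4 genes come from 4 different families. Their mean ratios had ranks 69, 16 and 9 from the top, and 27 from the bottom, of the 3819 features.

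Among the actins, which polymerise into the thin filaments of all cells, the ratios were small. The cytoplasmic beta-actin gene Actb had 0.10, 0.15 and 0.06 on the 3 arrays. Every array was above 0, with a mean of 0.10 ± 0.05 (SD, n = 3), 1.27-fold in base 10 or 1.07-fold in base 2 (limma adjusted p = 0.257). Its partner in non-muscle cells, Actg1, had 0.05, 0.10 and −0.03, and array 3 lay on the other side of 0. Acta2, the actin of vascular smooth muscle, pericytes and myofibroblasts, averaged 0.04 ± 0.03 with a 95% interval from −0.06 to 0.13. The visceral smooth muscle actin gene Actg2 averaged 0.05 ± 0.10, its value of 0.17 on array 2 standing apart from −0.01 on both other arrays. Acta1, the skeletal muscle actin, averaged 0.01 ± 0.04. All 5 actins had a mean above 0, as had 55.7% of all features. Without centring 4 did, against 45.2% of all features. None of the actins passed (adjusted p from 0.257 to 0.953). The actin genes have nearly identical coding sequences, so their probes can bind each other's transcripts.

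Among the proteins that crosslink, cap or line actin, 1 alpha-actinin gene and 1 adducin gene stood away from 0 on each array. Actn4, a non-muscle alpha-actinin that bundles actin and is needed by podocytes, had ratios of 0.14, 0.19 and 0.16. The arrays lay close together, with a mean of 0.16 ± 0.03 (SD, n = 3) and a limma adjusted p of 0.136. Read as a base 10 logarithm this mean is 1.46-fold, and as base 2 it is 1.12-fold. Centred within 32 blocks of spots, a setting chosen after seeing the data, its mean was 0.11 (adjusted p = 0.243), 1.51 times nearer to 0. Actn4 passed in 1 of 14 alternatives, with array weights (adjusted p = 0.00579). The related Actn1 averaged 0.00333 ± 0.06, with signs that differed between arrays.

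Add2, the beta-adducin known from red cells and brain, had the lowest adjusted p of all 52 genes. Adducins cap the fast-growing ends of actin filaments and tie them to spectrin. Add2 had −0.27, −0.23 and −0.34 on arrays 1, 2 and 3. All arrays were below 0, with a mean of −0.28 ± 0.06 (SD, n = 3). Read as lithium over control, this is 0.527 times the control level if the base was 10, and 0.825 times if it was 2. With the direction turned it would be 1.90 times or 1.21 times. Its limma adjusted p was 0.0560, and its 95% interval ran from −0.38 to −0.18. Of its 2 probes, 1 had a value on every array and read −0.27, −0.12 and −0.34. The other read −0.27 and −0.33 on arrays 1 and 2 and had no value on array 3. From the complete probe alone, the mean was −0.24 and the adjusted p was 0.134. Add2 passed in 8 of 14 alternatives, among them no centring (adjusted p = 0.0385) and arrays scaled to one spread (adjusted p = 0.0157), over a range of adjusted p from 0.000701 to 0.742.

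The other adducins did not share the low ratio of Add2. Add1, the widely expressed alpha-adducin, had 0.00, 0.20 and −0.01 (mean 0.06 ± 0.12, adjusted p = 0.571). Its mean rested on array 2 and was −0.005 without it, 0.10 without array 3, and 0.01 with array weights. Add3, the gamma-adducin that pairs with it outside red cells, had 0.00, 0.06 and −0.10 (mean −0.01 ± 0.08, adjusted p = 0.911). Whether Add2 differs from them was not tested. Of the red cell markers listed, the haemoglobin gene Hba-a1 read 0.16, 0.09 and 0.20 (limma adjusted p = 0.169). The anion exchanger Slc4a1 read 0.00, −0.01 and 0.07 (mean 0.02 ± 0.04), so its arrays did not share 1 sign. Alas2, the haem synthesis enzyme of red cell precursors, read −0.06 and −0.24 on arrays 1 and 2 and had no value on array 3. The part of red cell RNA in the value of Add2 was not tested.

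The spectrins, which form the membrane lattice that adducin joins to actin, both had mean ratios below 0, neither past the threshold. The non-erythroid alpha-spectrin gene Sptan1 had −0.12, 0.00 and −0.19 (mean −0.10 ± 0.10, SD, n = 3, limma adjusted p = 0.325). The beta-spectrin gene Sptbn1 had 0.05, 0.03 and −0.11, so its arrays disagreed in sign. The tropomyosins, which wind along actin filaments, stayed within 0.05 of 0, with means of 0.01 for Tpm4, 0.01 for Tpm1 and −0.04 for Tpm3.

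**Figure D2:**
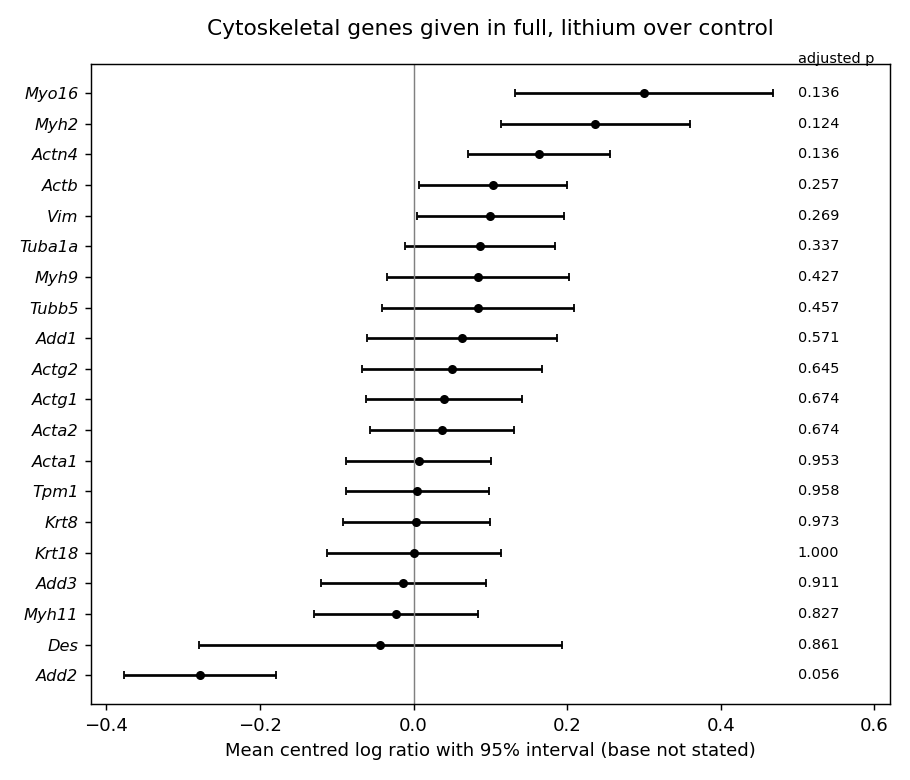
Mean centred log ratio (horizontal axis, lithium over control, base not stated) with its 95% interval from limma for the 20 cytoskeletal genes given in full, ordered by mean, with the adjusted p at the right. No adjusted p is below 0.05, and the intervals of Add2, Myh2, Myo16, Actn4, Actb and Vim leave out 0.

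The tubulins, the subunits of microtubules along which vesicles travel, read above 0 on arrays 1 and 2. Tuba1a had 0.09, 0.14 and 0.03 on the 3 arrays, with a mean of 0.09 ± 0.05 (SD, n = 3, limma adjusted p = 0.337). Tubb5 had 0.07, 0.21 and −0.03 (mean 0.08 ± 0.12, adjusted p = 0.457), and its mean was 0.02 without array 2 and 0.14 without array 3. Tubb2a had 0.04, 0.17 and −0.08 (mean 0.04 ± 0.12, adjusted p = 0.724). The 3 genes shared the same order of the arrays, highest on array 2 and lowest on array 3. The median of all features tested was highest on array 2 as well, at 0.04, against 0.01 and 0.00 on arrays 1 and 3. Tubulin genes are close relatives, so cross-binding between their probes is possible.

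Tuba1a was spotted 13 times from 1 sequence record, which shows how far spots of the same gene differ on 1 array. Its 13 spots ran from 0.01 to 0.19 on array 1, with 13 above 0 and an SD of 0.058. On array 2 they ran from 0.06 to 0.27, again with 13 above 0 and an SD of 0.064. On array 3 they ran from −0.08 to 0.20, with 7 above 0 and an SD of 0.097. Averaged over the arrays, single spots lay between 0.02 and 0.20, all above 0. The spread between spots was thus of the size of the spread between arrays, whose median SD over the 52 genes was 0.0786. Part of the difference between spots recurred from array to array. The spot with the highest mean read 0.17, 0.24 and 0.20, and the one with the lowest read 0.08, 0.06 and −0.07. The SD of the 13 spot means was 0.0618. A difference that recurs on every array is not held in the SD between arrays or in the limma interval. All 13 spots had 3 as the first number of the probe ID. Of the 52 genes tested, those measured by 1 spot carry this uncertainty in full. Repeated spots of Gapdh, Hprt1, Odc1, Prdx6 and Lypla1 had SDs from 0.037 (Gapdh on array 1) to 0.109 (Hprt1 on array 2).

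Several probes of 1 gene did not always agree. Tpm3 had 5 probes from 4 sequence records. On array 2 they read −0.29, −0.21, 0.00, 0.09 and 0.11. The lowest probe was below 0 on each array, at −0.15, −0.29 and −0.05. Of the others, 1 had no value on array 3, and all with a value there lay below 0. Tropomyosin genes give rise to many spliced forms, and which form each probe binds is not known here. The 2 probes of Krt18 and of Myh11 stayed within 0.08 of each other on every array. Both probes of Myo5b read −0.16 on array 2, whereas they read 0.13 and −0.04 on array 1.

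**Figure D3:**
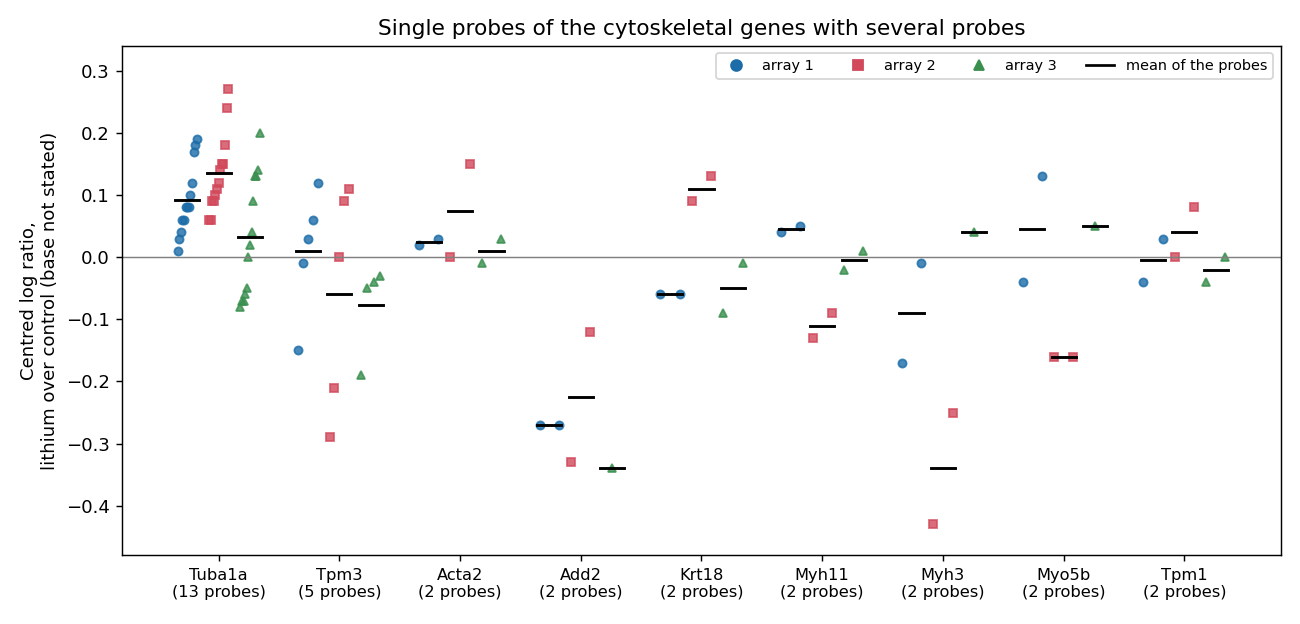
Centred log ratio (vertical axis, lithium over control, base not stated) of each probe of the 9 cytoskeletal genes with several probes, by array. Black bars are means over the probes of a gene on an array. The 13 spots of Tuba1a lie between −0.08 and 0.27.

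Krt8 and Krt18, the keratin pair of simple epithelium, had mean ratios near 0, and Krt1 and Krt16 of stratified epithelium had ratios below 0 that did not pass. Krt8, the type II keratin of collecting duct and other simple epithelia, had −0.04, 0.05 and 0.00 (mean 0.00333 ± 0.05, SD, n = 3, 95% interval from −0.09 to 0.10). Its partner Krt18 had −0.06, 0.11 and −0.05, a mean of 0.00 ± 0.10. Both partners were highest on array 2, and neither kept 1 sign. Krt20, known from urothelium and gut, read −0.06 on each array (limma adjusted p = 0.458).

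Krt16, a keratin of stressed stratified epithelium, had −0.05, −0.31 and −0.20 (mean −0.19 ± 0.13, adjusted p = 0.176). Krt1, the keratin of differentiated epidermis, had −0.07, −0.34 and −0.08 (mean −0.16 ± 0.15, adjusted p = 0.239). In both genes array 2 was the lowest. Krt5, the keratin of basal epithelial cells, read −0.20 and −0.17 on arrays 1 and 2 and had no value on array 3. None of the 6 uroplakin and basal cell markers listed for urothelium was found among the named probes. Krt19, another simple-epithelial keratin that is not counted here, had 0.44, 0.59 and 0.30 (mean 0.44 ± 0.15, adjusted p = 0.0443) and passed above 0. With any 1 array left out, 0 of the features tested passed.

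The other intermediate filament genes differed in how well their arrays agreed. Vim, the mesenchymal filament gene, had 0.13, 0.05 and 0.12, all above 0, with a mean of 0.10 ± 0.04 (SD, n = 3, limma adjusted p = 0.269). The fold would be 1.26 with base 10 and 1.07 with base 2. Des, the filament of muscle and of some pericytes, had 0.04, −0.38 and 0.21. Its arrays fell on both sides of 0, and its mean was −0.04 ± 0.30, or 0.13 without array 2. Fibroblast markers lay on both sides of 0, with 4 of 7 above it (57.1%, against 55.7% of all features). Their median was 0.02, and none passed. Of 6 smooth muscle and pericyte markers on the array, 3 were tested, with means of −0.08 for Pdgfrb, −0.05 for Tagln and 0.01 for Cnn1. In tissue RNA, fewer cells of a type and less RNA per cell cannot be told apart.

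Myo16 had the highest mean of the unconventional myosins, the single-headed or cargo-carrying motors that move along actin. Myo16, known mainly from neurons, had 0.12, 0.51 and 0.27. All arrays were above 0 but far apart, with a mean of 0.30 ± 0.20 (SD, n = 3), 2.00-fold in base 10 or 1.23-fold in base 2 (limma adjusted p = 0.136). Its mean was 0.39 without array 1 and 0.20 without array 2, 1.54 times nearer to 0. With array weights it was 0.16, 1.84 times nearer to 0. It passed in 3 of 14 alternatives.

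The other unconventional myosins tested had means from −0.02 to 0.08, and none passed. Myo5b, the motor of recycling vesicles that also moves Aqp2 in collecting duct cells, had 0.05, −0.16 and 0.05 (mean −0.02 ± 0.12, adjusted p = 0.868). Myo5a, a motor of pigment granules and secretory vesicles, averaged 0.08 ± 0.08 (adjusted p = 0.427). The membrane-linked class I myosins had means of 0.08 for Myo1d, 0.02 for Myo1e and 0.01 for Myo1c. Myo9b averaged −0.01 ± 0.03. Of these, Myo1d was above 0 on all arrays, at 0.03, 0.15 and 0.05.

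The myosin II motors of non-muscle and smooth muscle cells had means on both sides of 0. Myh9, the main non-muscle heavy chain, had 0.14, 0.15 and −0.04 (mean 0.08 ± 0.11, SD, n = 3, limma adjusted p = 0.427). Its mean was 0.06 without array 1, 0.05 without array 2 and 0.15 without array 3, and it passed in 1 of 14 alternatives, with array weights (adjusted p = 0.0244). Myh10, the other non-muscle chain measured, averaged −0.06 ± 0.06 (adjusted p = 0.508). Myh11, the smooth muscle chain, averaged −0.02 ± 0.08 (adjusted p = 0.827). Their regulatory light chains Myl9 and Myl12b averaged −0.02 ± 0.10 and −0.03 ± 0.02, and Myl6l averaged 0.06 ± 0.05. Myl12b was slightly below 0 and Myl6l above 0 on every array.

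Of 21 genes counted as striated muscle, 16 were tested. They took in Des, which is also found in some pericytes, and the 21 also held the kinase gene Mylk2. Leaving out Tnnt2, a cardiac troponin gene, lowered their SD on arrays 1 and 2 but not on array 3. The 5 others, Myh6, Myl4, Mylk2, Tnni1 and Tnni3, had no value on array 3 and are not in these SDs. All 5 read below 0 on arrays 1 and 2, with Tnni1 lowest at −0.49 and −0.69. The SDs across the 16 genes were 0.157, 0.231 and 0.15 on arrays 1, 2 and 3, or 0.0728, 0.162 and 0.152 without Tnnt2, which was left out after its values were seen. For the 36 other cytoskeletal genes the SDs were 0.0837, 0.158 and 0.101. The split was chosen after the values were seen, and no difference between these SDs was tested. Levels are unknown here, so whether these muscle genes were expressed above background in the medulla is not known.

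Myh2, the heavy chain of fast oxidative muscle fibres, stood out among the sarcomeric myosins. It had 0.19, 0.15 and 0.37, all above 0, with a mean of 0.24 ± 0.12 (SD, n = 3), 1.72-fold in base 10 or 1.18-fold in base 2 (limma adjusted p = 0.124). It passed in 4 of 14 alternatives. The other fast chains Myh1 and Myh4 averaged −0.05 and 0.01, and the perinatal chain Myh8 averaged 0.04. The slow and cardiac chain Myh7 had −0.07, −0.11 and −0.12 (mean −0.10 ± 0.03, adjusted p = 0.256), below 0 on each array. The embryonic chain Myh3 averaged −0.13 ± 0.19, and Myh13, known from eye muscle, averaged −0.00333 ± 0.04. Of 9 skeletal muscle markers on the array, 8 were tested. A mean above 0 was found for 1 of these (12.5%, against 55.7% of all features). The other 7 lay below 0, or 6 with arrays scaled to one spread. Pvalb had −0.05, −0.13 and −0.20 (adjusted p = 0.219), below 0 on each array. Myog, a muscle transcription factor and the 1 marker above 0, had 0.05, 0.13 and 0.18 (adjusted p = 0.230). The muscle creatine kinase Ckm had −0.13, 0.04 and −0.21 (mean −0.10 ± 0.13). The oxygen-binding myoglobin Mb read −0.60 and −0.78 on arrays 1 and 2 and had no value on array 3. The part of muscle RNA in the value of Myh2 was not tested. Sarcomeric myosin genes are close relatives, so their probes can bind each other's transcripts.

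The troponins, the calcium switch of striated muscle, held the lowest values among the 61 genes on arrays 1 and 2. Tnnt2, the cardiac troponin T gene, had −0.54, −0.71 and 0.13. Arrays 1 and 2 were far below 0 and array 3 above it, so the mean of −0.37 ± 0.44 (SD, n = 3, limma adjusted p = 0.246) describes no array. The fast muscle gene Tnnt3 had −0.04, 0.06 and −0.27 (adjusted p = 0.547), and Tnni2, the fast inhibitory subunit, averaged 0.07 ± 0.06 and was above 0 on every array. The sarcomeric light chains Myl1, Myl2, Myl3 and Myl11 had means from −0.03 to 0.05, and none kept 1 sign.

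The 9 genes with no value on array 3 were Krt5, Myh6, Myl4, Mylk2, Myo1a, Myo9a, Tnni1, Tnni3 and Tpmt. They were not tested. The slow troponin gene Tnni1 read −0.49 and −0.69 on arrays 1 and 2. The brush-border myosin gene Myo1a read −0.39 and −0.61, and the cardiac myosin gene Myh6 read −0.29 and −0.19. Both arrays were below 0 in 7 of these 9 genes, with Myo9a above it on both and Tpmt on both sides.

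Probes empty on array 3 read lower on the other arrays, in the whole table as well as among the cytoskeletal genes. Of the 84 cytoskeletal probes, 13 had no value on array 3 (15.5%), as had 25.6% of the 5760 probes in all. On array 1 their median was −0.13, against 0.03 for the 71 other cytoskeletal probes. On array 2 it was −0.16, against 0.06. Over all probes the medians were −0.08 on array 1 and −0.18 on array 2 for the 1473 empty on array 3, against 0.01 and 0.04 for the rest. A value below −0.3 was found for 11.4% of the 1473 on array 1 and 29.5% on array 2. For the rest these shares were 0.583% and 2.75%. Neither spot brightness nor a dye effect was tested for the low values of Tnni1, Myo1a and Myh6.

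**Figure D4:**
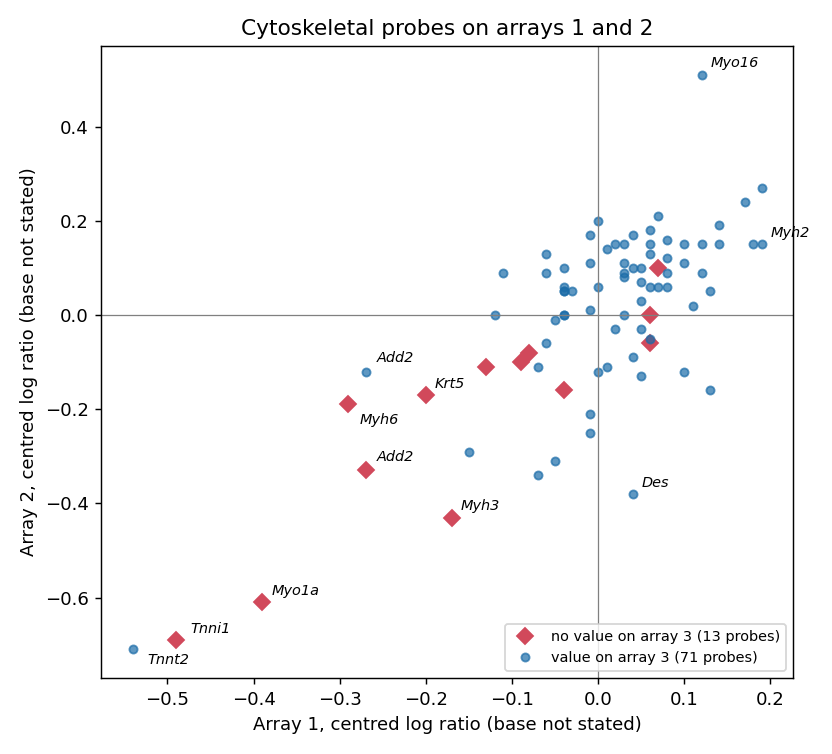
Centred log ratio of the 84 cytoskeletal probes on array 1 (horizontal axis) and array 2 (vertical axis), base not stated. Red diamonds are the 13 probes with no value on array 3 and blue circles the 71 with one. Tnni1 and Myo1a lie at the lower left beside Tnnt2, and Myo16 lies at the top.

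Regulators of the filaments, which are not counted among the 61 genes, gave few single results. Of 22 tested actin regulators none passed, and the median was 0.05, against 0.0133 for all features. A mean above 0 was found for 16 (72.7%, against 55.7% of all features). Without centring 13 lay above 0, as did 45.2% of all features. An unadjusted limma p of 0.05 was passed by 4 above 0 and 0 below, against 9.71% and 7.52% of all features. Tmsb10, a thymosin that binds actin monomers, had 0.16, 0.15 and 0.06 (mean 0.12 ± 0.06, SD, n = 3, limma adjusted p = 0.212). Limk1, the kinase that blocks the actin-severing protein cofilin, had 0.08, 0.13 and 0.12 (mean 0.11 ± 0.03, adjusted p = 0.223).

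Of 24 tested microtubule proteins and motors none passed, with 10 above 0 (41.7%, against 55.7% of all features) and a median of −0.0133. Dynll1, a light chain of dynein, had 0.15, 0.20 and 0.17 (mean 0.17 ± 0.03, SD, n = 3, limma adjusted p = 0.126). Map2, a microtubule-binding protein known from neurons, had −0.20, −0.20 and −0.12 (mean −0.17 ± 0.05, adjusted p = 0.136). Of 10 other intermediate filament, lamin and linker genes, 1 passed in the direction above 0, Krt19. The nuclear lamin gene Lmna had 0.14, 0.11 and 0.11 (adjusted p = 0.192).

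The arrays limit how small a difference could be seen. The 95% interval of a cytoskeletal gene reached a median of 0.106 to each side of its mean, or 1.28-fold if the base was 10 and 1.08-fold if it was 2. For 42 of the 52 genes this interval held 0. A gene that did not pass is therefore not shown to be the same in lithium-treated and control medulla.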

How the data were processed

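Total RNA of rat kidney inner medulla was compared on 3 dual-colour arrays. Per the labels, each array held lithium RNA in channel 1 (red) and control RNA in channel 2 (green), and different rats. The authors deposited 1 log ratio per probe for 5760 probes. The sources used here state neither the scanner, the background correction and normalization nor the log base, and the deposited column medians were −0.02, −0.04 and 0.00. Probes were named from the platform's annotation, where 5064 had 1 gene symbol. The gene IDs of 59 of the 61 genes were found, with the same symbol, in a RefSeq table, and Myh13 and Myl6l kept the annotation's names.

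Each array was centred on its median, probes of 1 gene ID were averaged, and unnamed probes stood alone. The 3819 of 5086 features with values on all 3 arrays were fitted with limma 3.58.1 in R 4.3.3 (intercept only, eBayes, two-sided, Benjamini-Hochberg over all features, adjusted p of 0.05). The fit was tested on simulated data drawn from its own variance estimates, with independent errors. Those data held no spot effect, dye effect or missing value, so they do not test how such effects act on these arrays. Tables and figures were made with matplotlib 3.10.9, numpy 2.4.6, pandas 2.3.3 and Python 3.11.15.

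Genes given in full were those past the threshold, those with 1 sign and at least 0.10 on every array, and 17 preset genes, and any other of the 61 could be named. Genes and lists were chosen with earlier results of these data known. Alternatives concerned centring, scaling, missing values, probes, weights, prior, zeros, threshold and arrays left out. The number of arrays limits the precision.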

Additional observations from a re-analysis of the deposited data

How the results depend on the processing

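The count of cytoskeletal genes past the threshold, 0 of 52, depended on the setting. It was 1 without centring, with centring on features measured on all 3 arrays, with centring within the first number of the probe ID, with centring within 32 blocks (chosen after seeing the data) and at an adjusted p of 0.10, and in each of these the gene was Add2. It was 2 with a robust prior (Add2 and Myh2). It was 3 with arrays scaled to one spread and 3 with exact zeros taken as missing (each time Add2, Myh2 and Myo16). Array weights gave 11, which were Actb, Actn4, Add2, Myh2, Myh9, Myl6l, Myo16, Sptan1, Tnnt2, Tuba1a and Vim. The count stayed 0 with features on at least 2 arrays, 1 probe per gene, complete probes only and filament proteins only. It also stayed 0 with any 1 array left out (lowest 0, highest 0). The gene with the lowest limma adjusted p was not always Add2. With 1 probe per gene it was Tuba1a (mean 0.203, limma adjusted p = 0.109). With features on at least 2 arrays it was Tnni1 (limma adjusted p = 0.0559). Over all features, 17 passed in the fit as reported. The count was 27 with centring within the first number of the probe ID, 98 with scaled arrays, 40 with features on at least 2 arrays, 9 with complete probes only, 1055 with array weights, 94 with a robust prior, 81 with exact zeros missing, 49 at an adjusted p of 0.10, and from 0 to 0 with 1 array left out. The cause of these differences was not tested. The median of the cytoskeletal genes ran from −0.00750 to 0.0138 with 1 array left out and was −0.0158 without centring. The count of cytoskeletal genes above 0 ran from 23 to 32 with 1 array left out. For the 20 genes given in full, 278 values were recomputed; 258 stayed on the same side of the threshold, 20 values of 8 genes moved past it, and none that passed had the opposite sign. Each array is itself a comparison of lithium and control RNA, so the fit already pairs the red and green channels of an array. The arrays form 1 group, and no further pairing was used.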
